A study of Mus musculus with 12 samples.

Results

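In mice treated with BF10, the CD8+ T cells of the tumor and of the tumor-draining lymph node (tdLN) each gave 1 T cell receptor (TCR) library, and the clonotypes of the tumor library were traced in the node library. A clonotype was 1 combination of chain, V gene, J gene and CDR3 base sequence, and it was called shared when both libraries listed it with at least 1 unique molecular identifier (UMI) of 3 or more reads. The tumor library listed 146278 clonotypes and the tdLN library 194709, together 340987 of the 1502315 clonotypes listed in the 12 libraries of the series. BF10 is a fusion of an antibody that blocks CSF-1R with IL-10. The host mice were wild type and carried HNSCC/Q1-2, a luciferase subline of the mouse oral cancer line MTC-Q1. All groups received 3 doses of 30 mg/kg at intervals of 3 days by the labels. The other treatments were its parts, IL-10-Fc and αCSF1R, and control IgG, each with 1 tumor, 1 tdLN and 1 spleen library. RNA of 3 mice was mixed before each library, so a tissue and treatment had 1 sample. No difference below has a replicate check, and no p-value is given. Whether the tissues of a treatment came from the same 3 mice is not known here. In such pools a shared clonotype need not come from a single mouse. The 95% intervals are Wilson intervals for shares and log-scale intervals for ratios, and they cover counting error only.

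A TCR of the common kind pairs an α and a β chain, and each chain gene is assembled in the thymus by joining a V segment to a J segment, with a D segment between them in the β chain. Exonucleases trim the ends and terminal transferase adds bases at the joints, so the CDR3, the loop that spans the joint and touches the peptide, differs between cells and is passed on to all daughters of a cell. A draining node is where naïve CD8+ T cells meet antigen brought from the tumor, and cells that divide there can leave for the tumor. Joints with few added bases form often and recur between mice, and such chains are called public. The chains were sequenced apart, so pairs of α and β chains were not known. In bulk RNA, more cells of a clone and more receptor RNA per cell cannot be told apart.

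The clonotypes on which the tracing turned are printed first, since the bases at the joint are what identified each of them. Each CDR3 runs 5′ to 3′ from the codon of the conserved cysteine of the V gene to that of the last phenylalanine, and capitals mark the bases that match neither the end of the V gene nor the start of the J gene. The first set holds the 10 β chain (TRBC) clonotypes with the most UMIs in the BF10 tumor, all of them listed in the BF10 tdLN:
tumor β 1, Trbv3 and Trbj2-7: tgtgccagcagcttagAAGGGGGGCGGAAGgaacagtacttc
tumor β 2, Trbv16 and Trbj2-7: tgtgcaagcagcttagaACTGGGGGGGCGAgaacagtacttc
tumor β 3, Trbv17 and Trbj1-1: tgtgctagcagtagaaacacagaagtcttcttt
tumor β 4, Trbv29 and Trbj1-4: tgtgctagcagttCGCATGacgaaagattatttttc
tumor β 5, Trbv15 and Trbj1-5: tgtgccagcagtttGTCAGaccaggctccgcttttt
tumor β 6, Trbv20 and Trbj2-4: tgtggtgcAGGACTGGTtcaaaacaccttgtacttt
tumor β 7, Trbv19 and Trbj2-3: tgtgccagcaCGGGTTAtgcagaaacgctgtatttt
tumor β 8, Trbv13-1 and Trbj2-4: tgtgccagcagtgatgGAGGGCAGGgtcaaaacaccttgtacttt
tumor β 9, Trbv19 and Trbj1-3: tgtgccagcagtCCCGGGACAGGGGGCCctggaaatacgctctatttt
tumor β 10, Trbv5 and Trbj2-1: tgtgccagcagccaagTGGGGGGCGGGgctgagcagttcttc

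The second set is shown for contrast, and holds the largest tumor β clonotype that the node did not list, the largest node β clonotype that the tumor did not list and the largest node β clonotype that the tumor did list:
tumor β 11, Trbv16 and Trbj2-4: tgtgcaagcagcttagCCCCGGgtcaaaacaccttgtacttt
tdLN β 1, Trbv12-1 and Trbj2-1: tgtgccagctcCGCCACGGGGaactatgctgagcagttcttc
tdLN β 6, Trbv17 and Trbj2-7: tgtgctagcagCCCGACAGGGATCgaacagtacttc

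The third set holds α chain (TRAC) clonotypes, the joint of which is shorter because the α chain has no D segment. Clonotypes 1 and 2 of the tumor had the same CDR3 bases under different names of Trav14 genes:
tumor α 1 and 2, Trav14 names and Traj22: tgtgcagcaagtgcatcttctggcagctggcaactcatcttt
tumor α 3, Trav5d-4 and Traj53: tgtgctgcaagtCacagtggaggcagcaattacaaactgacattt
tumor α 4, Trav1 and Traj12: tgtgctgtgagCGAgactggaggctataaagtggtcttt

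Only a small part of the tumor repertoire was seen in the node. Of 90267 tumor TRBC clonotypes, 4947 were listed in the BF10 tdLN, or 5.48% (95% interval 5.33 to 5.63%), and they held 8.16% of the tumor's TRBC UMIs. Seen from the node, the same clonotypes were 3.27% of its 151105 TRBC clonotypes and held 4.72% of its UMIs. The α chain was shared more often. Of 55103 tumor TRAC clonotypes, 4268 were listed in the node, or 7.75% (7.53 to 7.97%), and they held 14.2% of the tumor's TRAC UMIs. They were 11% of the node's 38898 TRAC clonotypes and held 15.8% of its UMIs. The depth behind these shares was 175080 TRBC UMIs in the tumor and 204079 in the node, so that 3 UMIs were 0.00171% and 0.00147%. The TRAC depth of the node was lower, at 55901 UMIs. Most node clonotypes rested on 1 UMI, which was true of 80.59% of its TRBC and 74.7% of its TRAC clonotypes. The node UMIs were also thinly read, since 8.0% of them had at least 7 reads, against 39.7% in the tumor.

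The shared clonotypes were larger than the others in both tissues. A shared TRBC clonotype had on average 2.89 UMIs in the tumor and an unshared one 1.88, and in the node the averages were 1.95 and 1.33. For TRAC the averages in the tumor were 3.92 and 1.99. Tumor clonotypes of high rank were listed in the node more often than those of low rank. All 10 TRBC clonotypes of tumor ranks 1 to 10 were listed (72.2 to 100%), and 46 of the 90 at ranks 11 to 100, or 51.1% (41.0 to 61.2%). Further down the share was 21.3% over the next 900 ranks, 8.41% over the 9000 after them and 4.91% beyond rank 10000. The nodes of the other treatments were read in the same way, as the level that clonotypes recurring between mice give.

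Against the nodes of other mice, the BF10 node stood furthest apart at the top ranks. Of the 10 largest tumor TRBC clonotypes, each of the other tdLN libraries listed 1. Of the 100 largest, the BF10 node listed 56 (46.2 to 65.3%), the IL-10-Fc node 12, the αCSF1R node 12 and the control IgG node 9, and the intervals of the BF10 node and of the others did not overlap. With at least 7 reads per UMI, and the clonotypes ranked anew, the BF10 node listed 20 (13.3 to 28.9%), the IL-10-Fc node 12 (upper bound 19.8%), the αCSF1R node 6 and the control IgG node 7. These counts rested on 16853 TRBC UMIs in the BF10 node and 65294 in the IL-10-Fc node, and the intervals of the pair overlapped. Of the 100 largest by UMIs of at least 3 reads, the spleen of the BF10 mice listed 23. Over the next 900 ranks the BF10 node listed 21.3% (18.8 to 24.1%) and the αCSF1R node 15.9% (13.6 to 18.4%), and at equal UMIs the shares were 16.6% in the BF10 node, 12.6% in the IL-10-Fc node and 12.3% in the αCSF1R node. In the tail beyond rank 10000 the BF10 node listed 4.91% and the αCSF1R node 4.61%, while the smaller control IgG node listed 2.39%. The BF10 and αCSF1R nodes were alike in UMI number and in the low share of UMIs with at least 7 reads (8.0% and 9.94%). At an equal 124488 TRBC UMIs per node, 3508 tumor clonotypes were expected in the BF10 node and 3154 in the αCSF1R node, the highest of the others, a ratio of 1.11 (1.06 to 1.17). Weighted by tumor UMIs the gap was wider, at 6.20% against 4.34%. Intervals of ratios between nodes treat the values as separate counts, although they are expectations over the same tumor clonotypes. The α chain gave a much smaller separation at the top. The BF10 node listed 76 of the 100 largest tumor TRAC clonotypes (66.8 to 83.3%), and the IL-10-Fc, αCSF1R and control IgG nodes listed 68, 64 and 67. At equal UMIs the BF10 node listed 74.4% of ranks 11 to 100 (64.6 to 82.3%), and the other nodes, in the same order, 64.2, 62.9 and 65.1%. Over the next 900 ranks the BF10 node listed 45.3% (42.1 to 48.6%), fewer than the IL-10-Fc node with 55.3% (52.1 to 58.6%), and beyond rank 10000 it listed 5.70% against 8.83%. The BF10 node had the fewest TRAC UMIs of the 4, and at its 55901 UMIs these shares of the IL-10-Fc node were 45.6% and 5.67%. At equal UMIs the ratio of the BF10 node to the highest other node was 1.03 (0.984 to 1.07) for TRAC.

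**Figure D1:**
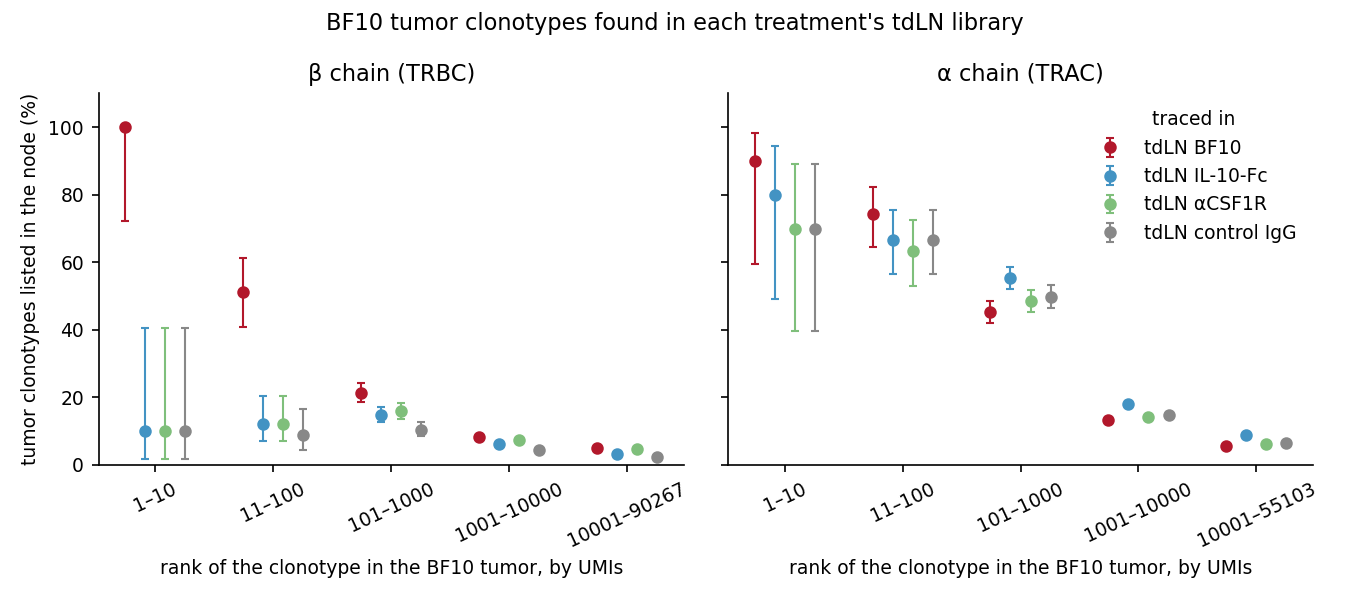
Share of BF10 tumor clonotypes listed in the tdLN library of each treatment (y axis, %), by rank of the clonotype in the tumor (x axis), for the β chain (left) and the α chain (right). Points are shares and bars 95% Wilson intervals, with 1 library per treatment. For the β chain the BF10 node lies at 100% and 51.1% in the first and second bins while the other nodes lie at or below 12.2%, and for the α chain the BF10 node is lowest from the third bin on, at 45.3% there against 55.3% for the IL-10-Fc node.

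The tumors of the other treatments also had a larger UMI share in the own node than in the other nodes. At equal UMIs, clonotypes listed in the own node held 9.53% of the TRBC UMIs of the IL-10-Fc tumor against 5.10% for the highest other node, 44.2% against 7.23% for the αCSF1R tumor, and 34.0% against 8.32% for the control IgG tumor. The own node's UMI share was 1.43 times that of the highest other node in BF10 mice, 1.87 times in IL-10-Fc mice, 6.11 times in αCSF1R mice and 4.09 times in control mice. By number of clonotypes, the IL-10-Fc tumor had a ratio of 0.997 (0.939 to 1.06) to the highest other node, that of BF10. There 2063 clonotypes were expected in the own node and 2069 in the BF10 node. In the αCSF1R and control IgG nodes 2030 and 1576 were expected. These tumor libraries differ in size, from 2493 TRBC clonotypes under αCSF1R to 90267 under BF10, and each ratio comes from 1 library, so the treatments were not tested against each other.

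The largest tumor clonotype, tumor β 1, joins Trbv3 (chr6:41048394-41048824, plus strand) to Trbj2-7 (chr6:41543810-41543856, plus strand). It had 296 UMIs in the tumor, 0.169% of TRBC, and 126 in the node, 0.0617%, where it held rank 7. Its share was 2.74 times higher in the tumor (2.22 to 3.37), the BF10 spleen had 3 of its UMIs, and no library of another treatment listed it. Tumor β 9 was as frequent in the node as in the tumor. It had 93 UMIs in the tumor, 0.0531% of TRBC, and 0.0495% in the node, a ratio of 1.07 (0.810 to 1.42), and ranked 9 and 11. These clonotypes, with tumor β 2, were the ones of the tumor's first 10 that were among the 20 largest of the node.

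The other large tumor clonotypes were much rarer in the node. Tumor β 2 had 290 and 73 UMIs, tumor β 6 had 123 and 25, and tumor β 8 had 103 and 21, so that each share was between 4.63 and 5.73 times higher in the tumor. Tumor β 4, 5 and 7 had 127, 124 and 113 UMIs in the tumor and 8, 6 and 9 in the node, with ratios of 18.5, 24.1 and 14.6. Tumor β 10 had 90 UMIs in the tumor and 1 in the node, a ratio of 105 with a counting interval of 14.6 to 753. Tumor β 11, a Trbv16 and Trbj2-4 clonotype, had 83 UMIs in the tumor and 0 in the node, so its share was at least 32.2-fold higher in the tumor against a floor of 3 node UMIs. Places in the node were spread widely, since the 56 listed clonotypes of the tumor's top 100 had node ranks from 6 to the last, with a median of 1632. There were 6 at node rank 100 or better, 24 at rank 1000 or better, and 16 that rested on 1 node UMI.

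Many of these large clonotypes were listed in the BF10 mice alone. Of the 15 largest tumor TRBC clonotypes, 14 were listed in the node, 12 were in no library of another treatment and 4 were in the BF10 spleen. Of the 56 in the top 100, 39 were listed in BF10 mice only, or 69.6% (56.7 to 80.1%). Of the 44 that the node did not list it was 38, or 86.4%, and of all 90267 tumor TRBC clonotypes 77669, or 86.0%, so the listed large clonotypes were below that level. Among shared clonotypes the share was 24.5% of the 192 in the next 900 ranks, 30.6% over the 9000 after them and 40.1% beyond rank 10000. Over all shared TRBC clonotypes, 61.6% (60.2 to 63.0%) were also listed under another treatment, against 11.2% (10.98 to 11.41%) of the tumor clonotypes that the node did not list. For TRAC these shares were 82.1% and 25.9%. The BF10 spleen listed 23.3% of the shared TRBC clonotypes and 2.44% of the unshared ones. Among clonotypes listed in BF10 mice only, it listed 9.27% of 1899 shared and 1.20% of 75770 unshared ones.

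Tumor β 3 was an exception among the largest. It joins Trbv17 (chr6:41163092-41163556) to Trbj1-1 (chr6:41533864-41533911) with 0 bases between the V and the J match, had 199 UMIs in the tumor and 23 in the node, and was listed in all 9 libraries of the other treatments. It had 384 UMIs in the IL-10-Fc tumor, 233 in the αCSF1R tumor and 924 in the control IgG tumor, and 95, 11 and 29 in their nodes. In each treatment it was more abundant in UMIs in the tumor than in the node, and the BF10 tumor had the lowest number of the 4 tumors.

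**Figure D2:**
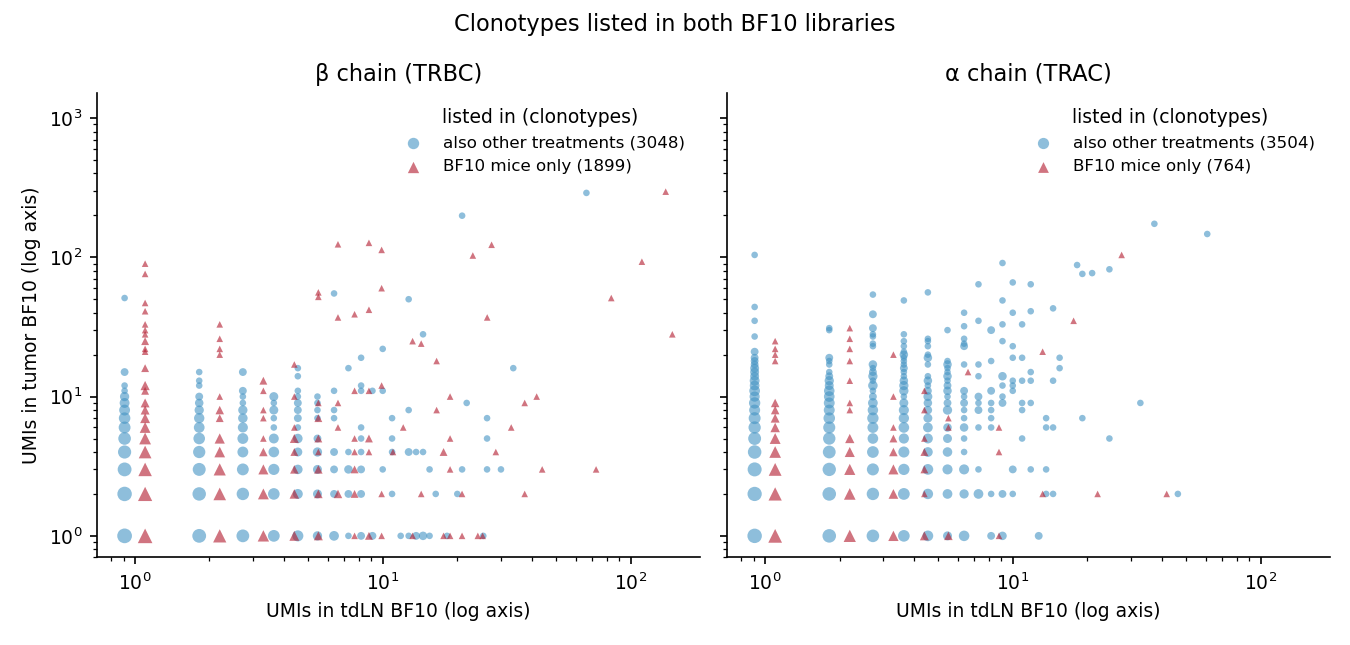
UMIs of each shared clonotype in the BF10 tumor (y axis) and in the BF10 tdLN (x axis), both on log axes, for the β chain (left) and the α chain (right). Triangles are clonotypes listed in BF10 mice only and circles those also listed under another treatment, moved slightly right and left of their node UMIs so that both show, with larger symbols where more clonotypes fall on a point. In the upper part, triangles prevail for the β chain (1899 of 4947 clonotypes are BF10 only) and circles for the α chain (3504 of 4268 are also listed elsewhere).

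Abundance in the tumor and in the node went together only weakly. Over the 4947 shared TRBC clonotypes Spearman's rho was 0.101, and over the 4268 shared TRAC clonotypes 0.226, given as descriptions since all points come from the same pair of libraries and most have 1 or 2 UMIs. Among the 20 TRBC clonotypes with at least 10 UMIs in both, rho was 0.506, and among the 36 such TRAC clonotypes 0.510. At least 4-fold higher shares were seen for 556 TRBC clonotypes in the tumor and for 78 in the node. For TRAC the numbers were 116 in the tumor and 543 in the node, where 1 UMI is a larger share because the TRAC depth of the node is lower. For TRBC 1 UMI is a larger share in the tumor, so 4 tumor UMIs against 1 node UMI passed and the reverse did not. Of the 556, 88 BF10-only clonotypes and 138 also listed elsewhere had just these UMIs. Among the 86 TRBC clonotypes with at least 5 UMIs in both, the numbers were 15 in the tumor and 3 in the node.

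Traced the other way, the largest node clonotypes were mostly not found in the tumor. Of the 100 largest TRBC clonotypes of the node, 17 (10.9 to 25.5%) were listed in the tumor and 49 in the spleen. The IL-10-Fc, αCSF1R and control IgG tumors, each with fewer TRBC UMIs, listed 4, 1 and 3 of them. The 5 largest had 358, 237, 213, 212 and 190 UMIs, and the BF10 tumor listed none of them. The largest, tdLN β 1, was 0.175% of the node's TRBC UMIs, at least 102-fold above 3 tumor UMIs. Of the 10 largest, 2 were listed, tdLN β 7, which is tumor β 1, and tdLN β 6. The latter had 134 UMIs in the node and 28 in the tumor, where it ranked 33, and its tumor share was 0.244 times its node share (0.162 to 0.366). Of the 17 listed clonotypes, 10 were seen in BF10 mice only, as were 66 of the 83 that the tumor did not list. For TRAC, 43 of the node's 100 largest clonotypes were listed in the BF10 tumor. Of these 43, 6 were seen in BF10 mice only, as were 32 of the 57 that it did not list. The IL-10-Fc, αCSF1R and control IgG tumors, each with fewer TRAC UMIs, listed 36, 14 and 26 of the same 100. The 5 largest TRAC clonotypes of the node had 72, 70, 67, 60 and 51 UMIs, and numbers 1, 2 and 4 of them were listed neither in the tumor nor under another treatment.

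The largest α clonotypes were of the public kind. Of the 10 largest tumor TRAC clonotypes, 9 were listed in the node, 7 were listed in 8 or 9 of the 9 libraries of other treatments, and 6 had 0 bases between the V and the J match. Tumor α 1 had 174 UMIs in the tumor and 41 in the node, and tumor α 2 had 147 and 67. The same bases stood under 10 combinations of V and J names in the tumor, together 574 UMIs or 0.488% of TRAC (0.450 to 0.529%), and under 8 in the node, together 176 UMIs or 0.315% (0.272 to 0.365%). Trav14 genes are near-identical copies, so how the reads were split among these names is uncertain.

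Of the tumor's 10 largest TRAC clonotypes, tumor α 4 was the 1 that no library of another treatment listed. It had 104 UMIs in the tumor and 25 in the node, a ratio of 1.98 (1.28 to 3.06). Of the 100 largest, 22 were listed in BF10 mice only, 10 of them in the node. That was 13.2% of the 76 that the node listed and 50% of the 24 that it did not. Over all 55103 tumor TRAC clonotypes the share listed in BF10 mice only was 69.8%. Tumor α 3, Trav5d-4 and Traj53, had 123 UMIs in the tumor and 0 in the node, so its share was at least 19.5-fold higher in the tumor. It was in the IL-10-Fc tumor with 62 UMIs and the control IgG tumor with 70, so it recurred in 3 of the 4 tumor libraries and in none of the nodes or spleens.

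Shared clonotypes had shorter CDR3s. The mean length of shared TRBC clonotypes was 39.7 bases (SD 4.04, n = 4947 clonotypes) and that of unshared tumor clonotypes 41.9 (SD 5.68, n = 85320), a difference of −2.19 bases. For TRAC the means were 40.05 (SD 3.47) and 40.8 (SD 4.36), a difference of −0.79 bases. For TRBC the sets differed at both ends of the length range. CDR3s of 33 bases or fewer were 11.7% of the shared and 5.40% of the unshared clonotypes, and those of 45 bases were 11.3% and 22.2%. CDR3s of 42 bases were the commonest class in both sets, at 34.7% and 30.5%. For TRAC the short class went the other way, since CDR3s of 33 bases or fewer were 4.99% of the shared (4.38 to 5.69%) and 6.73% of the unshared clonotypes (6.52 to 6.95%).

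The missing length lay in the joint, while the matches to the gene ends were longer among the shared clonotypes. Shared TRBC clonotypes had 7.12 bases (SD 3.74) that matched neither gene end, and unshared tumor clonotypes 10.5 (SD 5.51). For TRAC the numbers were 1.68 (SD 1.74) and 3.74 (SD 3.23). Joints with 0 such bases made up 3.42% of shared and 0.200% of unshared TRBC clonotypes, and 31.1% and 7.86% of TRAC clonotypes. The bases of the D segment are counted among those between the matches. Clonotypes that only the node listed had 10.02 such bases for TRBC and 3.58 for TRAC, near the tumor's unshared ones. The V match averaged 14.03 bases in shared and 13.36 in unshared tumor TRBC clonotypes, and the J match 18.51 and 18.02. For TRAC the V match was 11.92 and 11.09 bases and the J match 26.4 and 26.

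**Figure D3:**
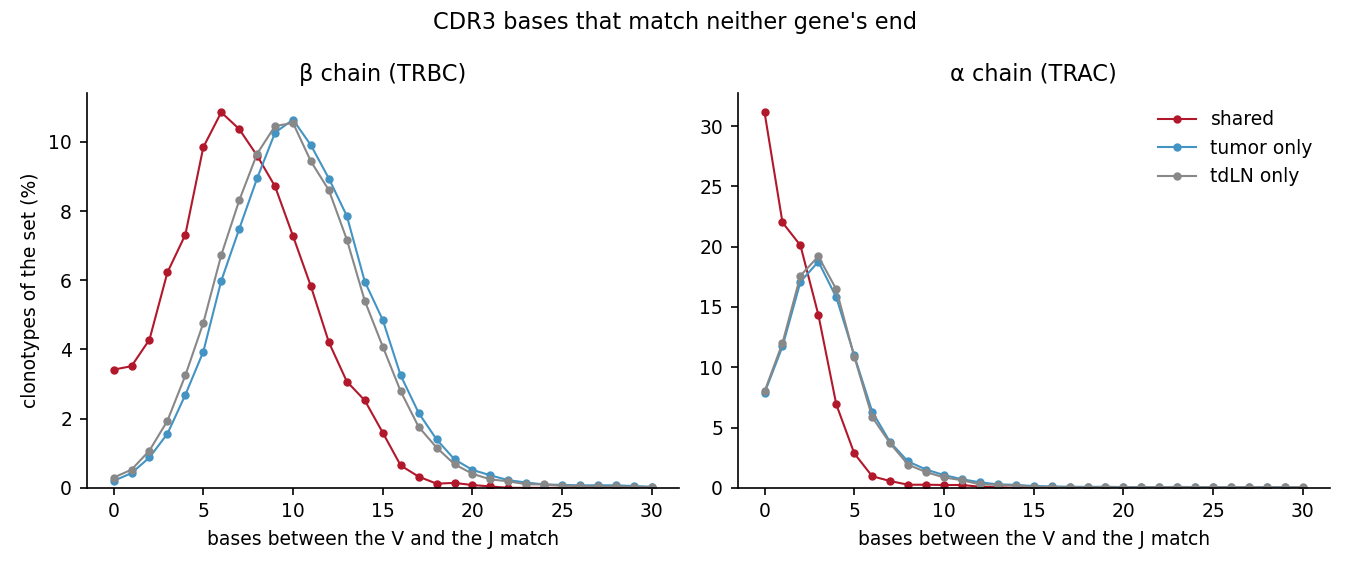
Distribution of the number of CDR3 bases that match neither the V nor the J gene end (x axis, bases), as the share of clonotypes in each set (y axis, %), for the β chain (left) and the α chain (right). Lines are clonotypes shared by the BF10 tumor and tdLN, in the tumor only, and in the tdLN only. The shared line is moved toward fewer bases (mean 7.12 against 10.5 for β, 1.68 against 3.74 for α), and the lines of the unshared sets lie close to each other.

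Read from the joint to the node, the pattern was steep. Of the 340 tumor TRBC clonotypes with 0 bases between, the node listed 49.7% (44.4 to 55.0%). This share was 25.8% at 1 or 2 bases, 10.8% at 5 or 6, and 1.18% (1.01 to 1.39%) at 15 or more. For TRAC it went from 24.9% at 0 bases to 1.82% at 5 or 6, and 0 of the 634 clonotypes with 15 or more bases were listed (upper bound 0.602%). Among the tumor TRBC clonotypes that no library of another treatment listed, the node listed 9 of 67 with 0 bases, or 13.4% (7.23 to 23.6%). This share was 11.5% at 1 or 2 bases, 4.78% at 5 or 6 and 0.927% (0.771 to 1.11%) at 15 or more. Within the tumor's top 100, the 56 listed clonotypes had 9.57 bases between (SD 4.53) and the other 44 had 9.20 (SD 3.65).

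**Figure D4:**
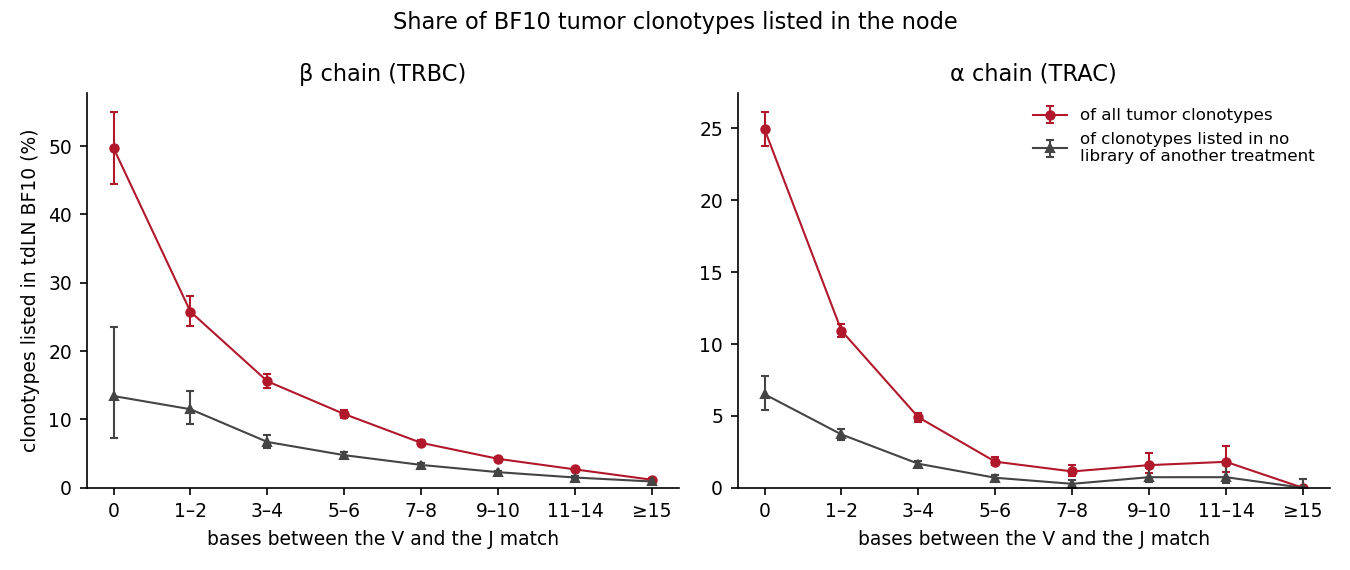
Share of BF10 tumor clonotypes listed in the BF10 tdLN (y axis, %), by the number of bases between the V and the J match (x axis), for the β chain (left) and the α chain (right). Circles are shares of all tumor clonotypes and triangles shares of the tumor clonotypes that no library of another treatment listed, with 95% Wilson intervals. For the β chain, circles go from 49.7% to 1.18% and triangles from 13.4% to 0.927%.

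The V genes of the shared and unshared TRBC clonotypes differed modestly. Of the 19 TRBV genes with at least 500 tumor clonotypes, 4, or 21.1%, differed more than 1.5-fold in their share of the 2 sets, all of them lower among the shared. Trbv31 was the lowest, at 0.526% of shared and 1.37% of unshared clonotypes, a ratio of 0.383 (0.260 to 0.564). It lies at chr6:41557693-41558371 on the minus strand, past the J segments, and rearranges by inversion. Trbv2, Trbv14 and Trbv20 had ratios of 0.517, 0.557 and 0.607. The highest were Trbv16 at 1.28 (1.19 to 1.37), Trbv13-2 at 1.18, Trbv13-1 at 1.17 and Trbv3 at 1.17, and Trbv16 (chr6:41151791-41152230, plus strand) was in 11.5% of the unshared and 14.7% of the shared clonotypes. With at least 7 reads per UMI, Trbv13-1 and Trbv3 came out below 1, at 0.973 and 0.915, and Trbv2 came closer to 1, at 0.882. By tumor UMIs instead of clonotypes, Trbv20 came out above 1, at 1.09.

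For TRBJ, 2 of 12 genes, or 16.7%, differed more than 1.5-fold. They were Trbj1-5 (chr6:41535084-41535133) at 0.456 (0.355 to 0.585) and Trbj2-2 (chr6:41542957-41543007) at 0.583 (0.499 to 0.683). By tumor UMIs instead of clonotypes, Trbj1-5 had 0.906. Trbj2-4 and Trbj1-6 had 0.810 and 0.721. The highest were Trbj1-3 at 1.47 (1.31 to 1.65), Trbj1-2 at 1.36, Trbj2-7 at 1.27 and Trbj1-1 at 1.13. The most used of them, Trbj2-7, was in 26.5% of shared and 20.9% of unshared clonotypes. The Trbj1 cluster as a whole had a ratio of 1.08 and the Trbj2 cluster 0.965, so the differences lay between single J genes more than between clusters.

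Among clonotypes listed in BF10 mice only, Trbv16 had a ratio of 1.09 (0.968 to 1.24), Trbj1-3 1.32 (1.09 to 1.60), Trbj1-5 0.676 (0.490 to 0.932) and Trbv31 0.569 (0.348 to 0.930), each closer to 1 than over all clonotypes, while Trbj1-1 had 1.16 and lay farther from it. Of the TRBV genes Trbv31 alone stayed past 1.5-fold. In the tumor's top 100, Trbv16 was used by 13 of the 56 clonotypes that the node listed and by 3 of the 44 that it did not. Trbv29 was used by 5 and 9, and Trbj2-7 by 16 and 11.

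**Figure D5:**
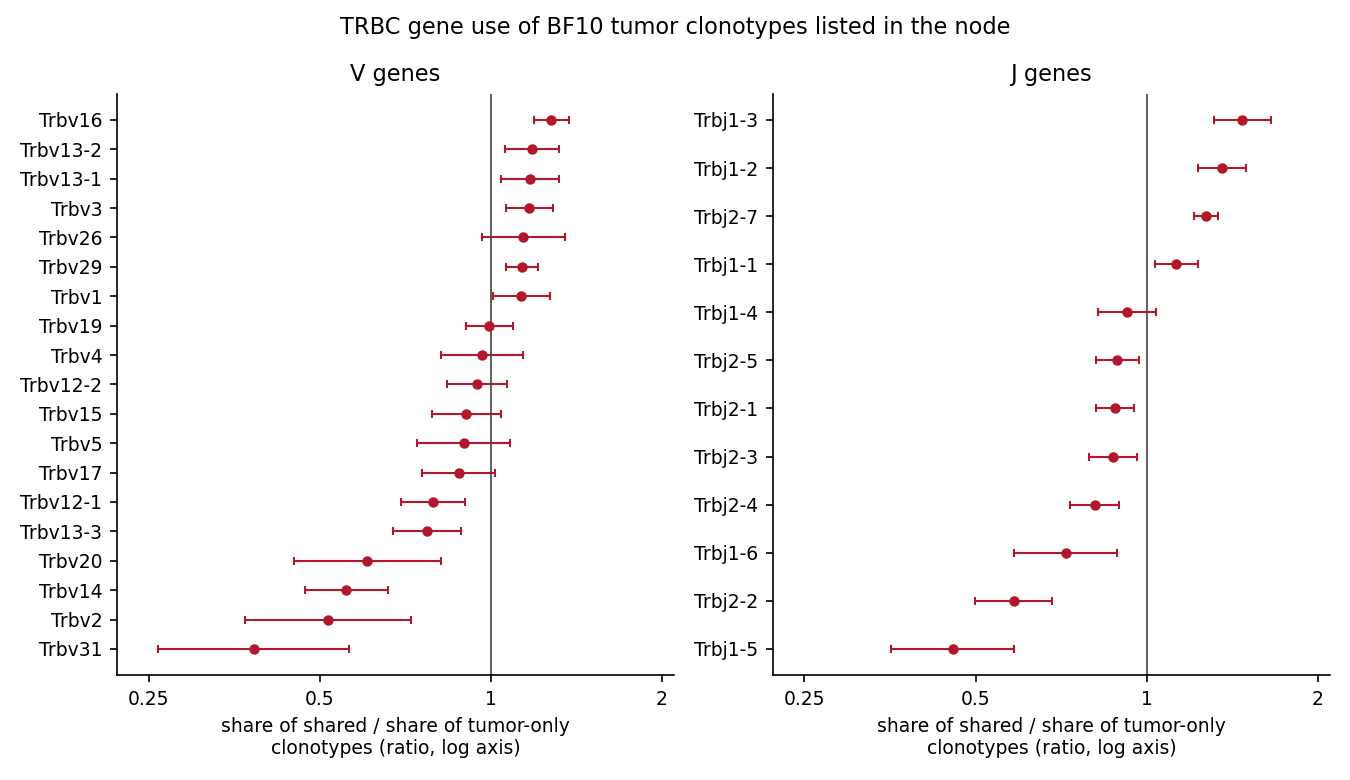
Share of each V gene (left) and J gene (right) among the 4947 shared TRBC clonotypes divided by its share among the 85320 tumor clonotypes that the node did not list (x axis, ratio on a log axis), for genes with at least 500 tumor clonotypes. Points are ratios and bars 95% counting intervals. Trbv31 at 0.383 and Trbj1-5 at 0.456 are lowest, and Trbv16 at 1.28 and Trbj1-3 at 1.47 are highest.

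Counted by gene name, the α chain differed more. Of 40 TRAV names with at least 500 tumor clonotypes, 18, or 45%, differed more than 1.5-fold, and of 35 TRAJ genes 11, or 31.4%. Trav7d-2 (chr14:52683964-52684472) had a ratio of 2.08 (1.84 to 2.35), Trav4n-4 2.03, the joint name Trav14-2 or Trav14n-2 2.01 and Trav10 1.96. The 4 lowest, from 0.245 to 0.392, were 3 joint names of several Trav12, Trav14 or Trav7 genes and Trav12d-1. Each V name of the same CDR3 counts as a clonotype, so these ratios and the family sums depend on how reads were split among copies. Summed by family, 2 of 14 TRAV families differed more than 1.5-fold. Trav14 as a family had 1.43 (1.34 to 1.53) and Trav5 0.426 (0.324 to 0.559). Of the TRAJ genes, Traj12 (chr14:54206552-54206610) had 1.91 (1.68 to 2.17), Traj22 1.72, Traj31 1.51 and Traj30 1.30, and Traj50, Traj4, Traj38 and Traj24 had 0.495, 0.415, 0.402 and 0.380. Grouped by position, Traj16 to Traj30 had a ratio of 1.15 (1.11 to 1.19) and Traj genes numbered above 45 had 0.789 (0.721 to 0.864). Among clonotypes listed in BF10 mice only, Trav7d-2 had 1.28 (0.874 to 1.88) and Traj30 0.925 (0.676 to 1.26). The joint name Trav7-4, Trav7d-4 or Trav7n-4 went from 0.392 to 1.25 (0.707 to 2.20). By contrast, Trav4n-4 had 2.11 (1.30 to 3.40), Traj12 1.69 (1.22 to 2.34) and Traj24 0.308 (0.0991 to 0.955) there.

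The same protein chain was often reached by other bases. Of the 85320 tumor TRBC clonotypes that the node did not list, 12112, or 14.2%, had the same V gene, J gene and CDR3 residues as another node clonotype. For TRAC this was 9.01%. Sets of V gene, J gene and residues that the tumor spelled with 1 base sequence were shared at the level of bases in 3.81% of 77929 cases for TRBC, those with 2 sequences in 22.7%, those with 3 or 4 in 49.3% and those with 5 or more in 83.3% of 114. A set with more sequences also has more chances to be listed.

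A case of this kind concerned tumor β 2 and was found after its values had been seen. Tumor β 15, with 55 UMIs in the tumor and 7 in the node, uses the same Trbv16 and Trbj2-7 and differs from tumor β 2 by 2 bases and 0 residues. In all, 7 base sequences of this chain, with 355 UMIs, were in the BF10 tumor (0.203% of TRBC, 0.183 to 0.225%), and 4, with 110 UMIs, in the BF10 node (0.0539%, 0.0447 to 0.0650%). Those listed in the node are printed here, the first of them again as the reference:
version 1: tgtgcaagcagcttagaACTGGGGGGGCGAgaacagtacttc
version 2, tumor β 15: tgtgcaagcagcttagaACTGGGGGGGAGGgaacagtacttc
version 3: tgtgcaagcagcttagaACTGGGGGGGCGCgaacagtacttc
version 5: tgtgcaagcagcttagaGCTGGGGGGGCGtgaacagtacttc

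The versions differed in where they stood. Version 1 had 290 UMIs in the tumor and 73 in the node, whereas version 3 had 5 in the tumor and 29 in the node. Version 5 had 1 in each. Version 4, listed in the tumor only, had 2 UMIs. The BF10 spleen listed none of the versions, which allows up to 0.00200% of its TRBC UMIs.

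The chain was also large in tumors of other treatments, under partly different bases. The IL-10-Fc tumor held 14 versions with 1447 UMIs, 1.11% of its TRBC (1.06 to 1.17%), and its node 6 versions with 236 UMIs. The αCSF1R tumor held 6 versions with 339 UMIs, or 1.03% (0.930 to 1.15%), 334 of them in a version that neither BF10 library listed, and its node 1 version with 14 UMIs. The control IgG tumor and node held 1 UMI each. Version 1 itself was not listed in the IL-10-Fc or αCSF1R libraries and had 1 UMI in the control IgG tumor, while versions 2, 3 and 4 had 326, 285 and 352 UMIs in the IL-10-Fc tumor. Whether RNA or reads passed between libraries was not tested.

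Other T cells were checked through their receptors, since a receptor library holds no CD8 RNA and the CD8 selection could not be read from it. The labels name CD8 T cells for both libraries. γ chains (TRGC) were 0.397% of all UMIs in the tumor and 4.23% in the node, and δ chains (TRDC) 0.501% and 2.11%. Chains of Trav11 and Traj18, the genes of the invariant NKT chain, were counted with any CDR3. They were 0.0178% of TRAC in the tumor (21 UMIs over 15 clonotypes) and 0.320% in the node (179 UMIs over 21). The largest of them in the node had 51 UMIs there and 2 in the tumor. Chains of Trav1 and Traj33, the genes of the MAIT chain, also with any CDR3, were 0.0119% and 0.0161%, from 14 and 9 UMIs. The node library thus held larger shares of γδ chains and of Trav11 and Traj18 chains than the tumor library. Of the 4268 shared TRAC clonotypes, 1 was a Trav11 and Traj18 chain and 1 a Trav1 and Traj33 chain. The part of γδ T cells in the αβ chain libraries was not tested.

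The γ and δ chains differed in how far they were shared. Of 289 tumor TRGC clonotypes, 115 were listed in the node, and they held 57.8% of the tumor's and 61.4% of the node's TRGC UMIs. The largest shared in the tumor was a Trgv5 and Trgj1 chain with 92 UMIs in the tumor and 60 in the node, listed in all 9 libraries of the other treatments. For TRDC, 17 of 619 were listed in the node, or 2.75% (1.72 to 4.35%). They were led by a Trdv4 and Trdj2 chain with 87 UMIs in the tumor and 2152 in the node, 36.7% of the node's TRDC UMIs. This chain too was listed in all 9 libraries of the other treatments. It had 2374, 2018 and 1359 UMIs in the IL-10-Fc, αCSF1R and control IgG nodes. The Trgv5 and the Trdv4 chain are of the kind made without variation in the fetal thymus.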

How the data were processed

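CD8+ T cells were selected with microbeads, and 100 ng of RNA mixed from 3 mice entered each library of the QIAseq mouse TCR kit, which ligates a UMI to each cDNA. The authors assigned V region, J region and CDR3 in Qiagen's analysis portal. They deposited UMI counts of each clonotype, not normalized, for UMIs with at least 3 reads and, separately, for those with at least 7. They also gave a fraction, its UMIs of 3 or more reads over the total of the library and chain, which was checked with 0 mismatches. The labels name mm10. The portal's version, germline reference and error correction are not given in the sources used here, and the labels and the paper's methods differ in the dose. Of the clonotypes of both libraries, 0 were out of frame, 0 had a stop codon and 226 had an undetermined residue, of which 0 were shared TRBC or TRAC clonotypes.

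Clonotypes were ranked by UMIs within a chain, ties at their mean rank. Numbers at equal UMIs were expectations for drawing without replacement. V and J gene ends were read from the RefSeq annotation of GRCm38.p6, the same build as mm10. For 10 V genes, Trbv26 and 9 Trav genes, the commonest bases of the clonotypes were used, since their clonotypes matched the annotated end poorly. Nothing was tested, since each group had 1 library. Shares have Wilson intervals, ratios log-scale intervals for separate counts, and the floor was 3 UMIs. For ratios between nodes, where the same tumor clonotypes stand on both sides, these intervals are approximate. Named clonotypes and genes were taken, by rule, from the 15 TRBC and 10 TRAC clonotypes largest in the tumor, the 10 and 5 largest in the tdLN, the largest unlisted ones, and the 4 V and J genes at each end of the ratio among those with at least 500 tumor clonotypes. The members and lists were chosen with earlier results of these data known. Alternatives were a minimum of 2 UMIs or 7 reads, clonotypes defined by CDR3 bases or by residues, merging of CDR3s 1 base apart where 1 was 10-fold larger, equal UMIs, weighting by UMIs or UMI class, and leaving out clonotypes of other treatments. The steps were tested on simulated data. Intervals were made with scipy 1.17.1, tables with pandas 2.3.3 and numpy 2.4.6 under Python 3.11.15, and figures with matplotlib 3.10.9.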

Additional observations from a re-analysis of the deposited data

How the results depend on the processing

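The share of tumor clonotypes listed in the node depended on the definition. For TRBC clonotypes, TRAC clonotypes and TRBC UMIs in turn, it was 2.30, 4.89 and 4.53% with at least 2 UMIs in both libraries, 0.865, 1.19 and 1.70% with 7 reads per UMI, 7.56, 15.8 and 10.97% by CDR3 bases without the V and J names, and 26.8, 28.5 and 41.9% by CDR3 residues. It was 2.44, 1.99 and 4.08% without clonotypes listed under another treatment. At equal UMIs the TRBC values were 3.89 and 6.20%, and with CDR3s 1 base apart merged the TRAC value was 7.52%. Of the tumor's top 100 TRBC clonotypes, 20 were listed with 7 reads and 97 by residues, and 40 to 65 under the other alternatives. The ratio of the BF10 node to the highest other node was 1.17 with 7 reads, 1.02 by residues, and above 1 under every alternative run. Shared CDR3s were shorter under every alternative run for length, which was not run by residues or at equal UMIs. The TRBC difference was −2.45 bases with at least 2 UMIs and −1.51 without clonotypes of other treatments, and the TRAC difference −1.11 by CDR3 bases and −0.55 without clonotypes of other treatments. Without those clonotypes, 1 TRBV and 0 TRBJ genes differed more than 1.5-fold. Weighted by tumor UMIs, the ratio of Trbv20 was 1.09 and that of Trbj1-5 0.906. With 7 reads it was 0.973 for Trbv13-1, 0.915 for Trbv3 and 0.882 for Trbv2. With 1 node UMI behind most clonotypes, a tumor clonotype not listed in the node was not detectable at this depth, which does not show that it was absent. The low number of reads per UMI in the node limits the 7-read values most, and its cause was not tested.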
